A study of Homo sapiens with 12 samples.

Results

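Sterol and fatty acid synthesis was described here through 33 genes. The set was defined by pathway membership, with earlier results of these data known. It holds 8 enzymes of the mevalonate steps, 11 enzymes that turn their product into cholesterol, 8 genes of fatty acid synthesis and 6 genes that regulate the pathway or carry sterols, out of 58735 gene rows in the deposited table. The cells were TIGK, keratinocytes of human gingiva immortalised by hTERT transfection, and all of them came from this 1 line. Every culture received 48 mM glucose, the high-glucose condition, in a SILAC-type DMEM with lysine, glutamine, insulin, pituitary extract and hydrocortisone. The untreated control received no L-arginine (Arg), the treated cells received 500 µM Arg, and both were collected after 24 h and after 48 h. Each of the 4 groups held 3 libraries, A, B and C, with 16542243 to 19040964 counted reads per library, and the members took 0.680% to 1.19% of them. Cells were seeded into the wells of 6-well plates with 3 replicates per condition, and neither the labels nor the methods say whether the replicates were separate experiments, so the p-values measure the spread between these libraries.

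Cells build cholesterol from acetyl-CoA. The mevalonate steps make farnesyl diphosphate, squalene synthase joins a pair of these, and the sterol steps close the rings and trim the product, while farnesyl and geranylgeranyl diphosphate also feed protein prenylation, dolichol and ubiquinone. Fatty acid synthesis draws on the same acetyl-CoA pool, and both branches are known targets of the SREBP transcription factors, encoded by SREBF1 and SREBF2. SCAP escorts the SREBP precursors out of the endoplasmic reticulum when sterols are low, and the INSIG proteins hold them back when sterols are high. In stratified epithelia such as gingiva, keratinocytes make sterols and fatty acids for growth and for the barrier lipids of the upper layers.

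All 33 members were counted in every library, with between 135 reads for TM7SF2 and 105417 reads for SCD, and all passed the filter on low counts in each comparison. Levels are given as CPM, the counts scaled to a common library total, after TMM scaling. A gene was called at an adjusted p under 0.05 in edgeR's quasi-likelihood test, adjusted over all genes tested, and an unadjusted p under 0.05 is given beside it because the study chose its genes that way. Keratinocyte markers (KRT5, KRT14, KRT6A, KRT17, TP63 and ITGB4) summed to between 41571 and 53676 CPM in every library. The summed markers of melanocytes, endothelial cells and leukocytes stayed at or below 3.06 CPM. Summed fibroblast markers at 24 h were 34.2 to 54.4 CPM in the control and 30.2 to 41.4 CPM with Arg. At 48 h they were 85.4 to 102.5 and 72.7 to 100.3 CPM. Of these 7 markers, 4 averaged under 1 CPM over the 12 libraries. At 24 h DCN averaged 31.7 CPM in the control and 19.5 with Arg, and COL1A1 12.4 and 13.0. Of the 4 tested at 24 h, 1 was called lower with Arg and 0 higher, against 3.84% and 2.79% of all genes. In bulk RNA, fewer cells of a type and less RNA per cell cannot be told apart.

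Compared per kilobase of gene length, members differed widely. SCD, the desaturase that makes monounsaturated fatty acids, was the most abundant at 564 CPM per kb in the control at 24 h. FASN, fatty acid synthase, followed with 139, DHCR7, the last reductase of cholesterol synthesis, with 108, and SQLE, squalene epoxidase, with 70.4 CPM per kb. The lowest were FADS2, a desaturase of polyunsaturated fatty acids, at 1.73, the sterol demethylase CYP51A1 at 2.65 and INSIG2 at 2.68 CPM per kb. SCD alone supplied 35.8% to 47.8% of all member counts across the 12 libraries.

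**Figure D1:**
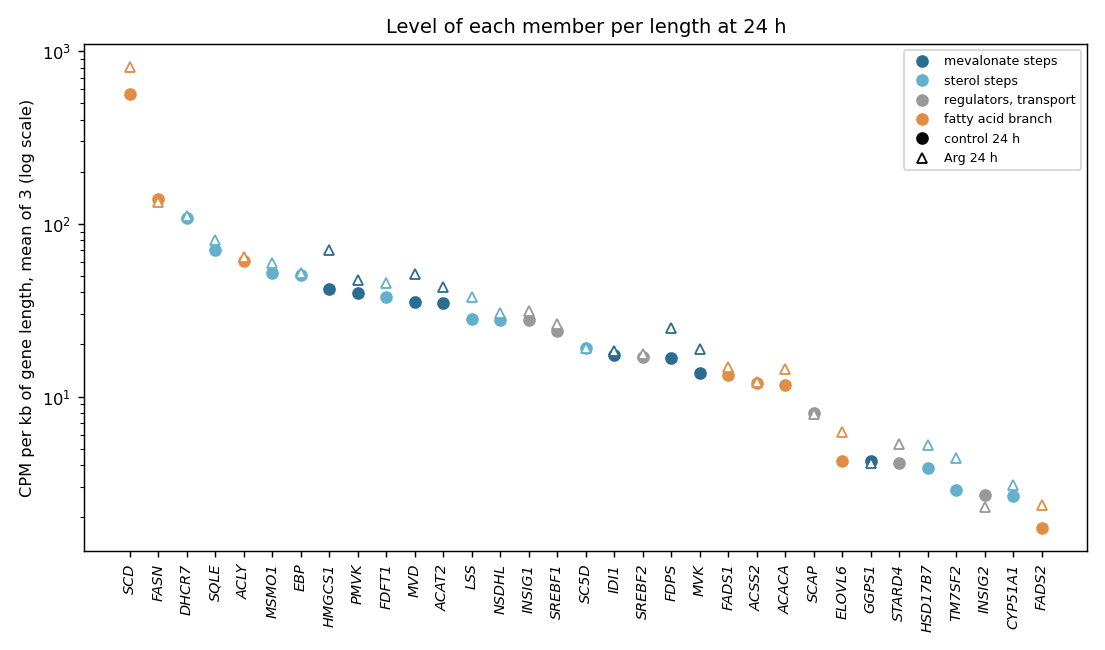
Mean level of each of the 33 members at 24 h in CPM per kilobase of gene length (log axis), with filled circles for the control and open triangles for Arg, 3 libraries each, coloured by branch. SCD stood above all other members in both groups, at 564 CPM per kb in the control and 807 with Arg, and FADS2 was lowest in the control at 1.73.

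The first comparison asked what Arg treatment changed after 24 h. Genes of cholesterol synthesis were upregulated, led by HMGCS1, the cytosolic HMG-CoA synthase, at 1.69-fold, with FDPS, MVD, MVK and ACAT2 of the mevalonate steps and TM7SF2, LSS and HSD17B7 of the sterol steps. In the fatty acid branch ELOVL6, SCD, FADS2 and ACACA rose, while FASN and ACLY did not pass the test. In all, 12 of 33 members were called higher, against 2.79% of the 14279 genes tested, and 0 were called lower, against 3.84%. At an unadjusted p under 0.05 there were 16 higher and 0 lower members, against 10.8% and 11.9% of all genes, and DESeq2 called 11 higher and 0 lower after adjustment, among 494 higher and 645 lower of all genes. The 3 Arg libraries lay above all 3 control libraries for 15 members (12.9% of all genes) and below them for 1, INSIG2 (13.4% of all genes). The median log2 fold change was 0.38 over the mevalonate steps, 0.19 over the sterol steps, 0.24 over the fatty acid branch and 0.10 over the 6 regulators and carriers, and over all tested genes it was 0.0030.

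1 control library at 24 h stood apart within these genes and also over all genes. The chi-square per degree of freedom between libraries, where read sampling alone gives 1, was 12.3 and 12.5 for control B against A and C. It was 6.54 for control A against C. Arg library A gave 12.4 and 10.9 against B and C, which gave 5.41 between them. Arg library A was the highest of its group for 18 members (54.5%), compared with 36.4% of all tested genes. Control B at 24 h was the highest of its group for 26 of 33 members (78.8%), compared with 37.0% of all tested genes, and its members took 0.951% of counts against 0.710% and 0.680% in controls A and C. Arg libraries at 24 h had 0.955% to 0.993%. Without control B the number of members called higher at 24 h was 16, with FDFT1, INSIG1, STARD4 and FADS1 added and none of the 12 lost, while over all genes the higher calls went from 398 to 647 of 14645. Without control A it was 3 (HMGCS1, FDPS and ELOVL6), and without control C it was 4, with MVD added to those 3. Over all genes the higher calls were then 126 of 14661 and 152 of 14694. Without Arg library A, B or C it was 10, 5 or 4, with 482, 149 or 136 higher calls over all genes. HMGCS1, FDPS and ELOVL6 were called in each of these 6 fits, and all 12 kept a positive change in each. Mitochondrially encoded genes took 1.20% to 1.30% of counts in the control and 0.624% to 0.802% with Arg at 24 h. Leaving those genes out gave 11 members called higher, among 393 higher of 14259 genes. That fit only removes their counts, and the part of this difference between the groups in the result was not tested. Summed suprabasal markers were 811 to 1368 CPM in the control and 1085 to 1654 CPM with Arg at 24 h, with control B the highest control, and their part in the result was not tested.

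Promoter sequence was examined because 12 members rose at 24 h and none fell. Among the 33 members, 29 had a promoter entry in the reference used, from RefSeq's GRCh38.p14 annotation, with 42 start sites. The 250 bases before each start were searched on both strands. ACAT2, which was called at 24 h, and FDFT1, SQLE and FASN had no entry and were not searched. The search thus covered 16 of the 19 sterol enzymes. CCAAT, the letters that the factor NF-Y reads, stood in the windows of 14 of 16 sterol enzyme genes (87.5%) and 4 of 7 fatty acid genes (57.1%), compared with 37.0% of all genes and 40.2% of protein-coding genes. GGGCGG, the letters known for Sp1, stood in 28 of 29 members (96.6%), compared with 46.2% of all genes and 62.1% of protein-coding genes. TCACNCCAC, a strict spelling of the sterol regulatory element where N is any base, was found for 1 member, SREBF2 (3.45%), and for 1.09% of all genes. The E-box CACGTG stood in 3 members (10.3%) and 7.73% of all genes. The motifs can overlap, a match is not evidence of binding, and a missing match says only that these letters are not in the window. The following stretches are from 4 members that rose with Arg and from SREBF2. They run 5′ to 3′ on the strand of the gene, and each ends where the gene begins in the deposited table. Capitals mark CCAAT or its reverse complement in the first 4 and the sterol regulatory element letters in SREBF2.
HMGCS1: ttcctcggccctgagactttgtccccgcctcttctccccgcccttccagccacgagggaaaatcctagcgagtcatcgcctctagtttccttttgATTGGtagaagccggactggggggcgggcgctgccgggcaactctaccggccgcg
FDPS: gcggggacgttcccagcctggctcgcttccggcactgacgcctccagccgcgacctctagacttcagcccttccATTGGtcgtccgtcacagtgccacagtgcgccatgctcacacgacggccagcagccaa
MVD: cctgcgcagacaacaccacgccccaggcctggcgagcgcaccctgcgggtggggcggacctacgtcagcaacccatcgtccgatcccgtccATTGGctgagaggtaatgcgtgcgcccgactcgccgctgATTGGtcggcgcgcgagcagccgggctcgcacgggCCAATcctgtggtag
SCD: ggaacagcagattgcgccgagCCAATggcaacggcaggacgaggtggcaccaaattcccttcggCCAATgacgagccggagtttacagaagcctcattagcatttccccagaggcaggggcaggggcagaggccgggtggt
SREBF2: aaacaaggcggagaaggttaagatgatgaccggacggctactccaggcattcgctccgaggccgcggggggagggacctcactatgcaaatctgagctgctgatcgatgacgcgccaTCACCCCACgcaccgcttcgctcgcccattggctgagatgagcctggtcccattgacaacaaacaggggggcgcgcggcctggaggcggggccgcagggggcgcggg
These stretches lie at chr5:43313513-43313662 (minus strand), chr1:155308616-155308747 (plus), chr16:88663162-88663341 (minus), chr10:100346983-100347123 (plus) and chr22:41832855-41833078 (plus). MVD carried 3 CCAAT matches in its 180 bases, SCD 2 in 141, HMGCS1 1 in 150 and FDPS 1 in 132, and over the full 250 bases HMGCS1 had 2 and FDPS 3. ELOVL6 and FADS2, which rose with Arg as well, had no CCAAT match in the 250 bases before any listed start. Members not called at 24 h also had matches, with 5 for NSDHL, 4 for MSMO1 and 3 for EBP, while others such as PMVK and CYP51A1 had none. Whether CCAAT goes with the change under Arg was not tested.

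The mevalonate steps held 5 of the 12 called members. HMGCS1 was at 183, 224 and 183 CPM in controls A, B and C at 24 h and at 362, 339.6 and 299 CPM in Arg libraries A, B and C. The Arg libraries lay well above the controls with no overlap, and the log2 fold change was 0.76 ± 0.094 (SE, adjusted p = 9.76e-05). HMGCS1 lies at chr5:43289395-43313512 of GRCh38, the build of the deposited table and of the gene coordinates that follow, and its protein joins acetyl-CoA and acetoacetyl-CoA into HMG-CoA.

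FDPS was at 59.9, 67.8 and 57.4 CPM in controls A, B and C at 24 h and at 90.9, 91.9 and 93.8 CPM in Arg libraries A, B and C. FDPS, at chr1:155308748-155320666, makes farnesyl diphosphate, and its 3 Arg libraries lay close together and above every control. Its log2 fold change was 0.58 ± 0.088 (SE, adjusted p = 0.000715). MVD was at 149.8, 205 and 146 CPM in controls A, B and C at 24 h and at 224, 253 and 249 CPM in Arg libraries A, B and C. For MVD, at chr16:88651935-88663161, the decarboxylase that yields isopentenyl diphosphate, control B was nearer to the lowest Arg library than to the other controls, and the log2 fold change was 0.54 ± 0.11 (SE, adjusted p = 0.00596).

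MVK was at 83.9, 104 and 79.0 CPM in controls A, B and C at 24 h and at 116, 127 and 122 CPM in Arg libraries A, B and C. MVK, mevalonate kinase, at chr12:109573255-109598117, had the same order, with control B highest of the controls and still below all Arg libraries, and a log2 fold change of 0.45 ± 0.10 (SE, adjusted p = 0.0104). ACAT2 was at 145, 164 and 138 CPM in controls A, B and C at 24 h and at 190.3, 183 and 184 CPM in Arg libraries A, B and C. ACAT2, at chr6:159760328-159779055, makes acetoacetyl-CoA at the entry of the pathway and changed least of the 5, with a log2 fold change of 0.32 ± 0.082 (SE, adjusted p = 0.0255). The other mevalonate genes were not called. These were PMVK, phosphomevalonate kinase (0.24 ± 0.11, with ± for the SE from here on), IDI1, which isomerises isopentenyl diphosphate (0.076 ± 0.11), and GGPS1, which makes geranylgeranyl diphosphate (-0.036 ± 0.13). Of these 3, PMVK passed the unadjusted threshold.

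In the sterol steps, 3 of 11 enzymes were called. LSS was at 192, 240.1 and 176 CPM in controls A, B and C at 24 h and at 250.4, 279 and 294 CPM in Arg libraries A, B and C. LSS, lanosterol synthase, at chr21:46188141-46228824, closes the sterol rings, and its control B library reached 240.1 CPM, just under the lowest Arg library. Its log2 fold change was 0.44 ± 0.10 (SE, adjusted p = 0.0144). TM7SF2 was at 8.99, 12.8 and 7.82 CPM in controls A, B and C at 24 h and at 13.7, 16.1 and 15.0 CPM in Arg libraries A, B and C. TM7SF2, a sterol reductase at chr11:65111845-65116384, had few reads and the widest error of the 12, with a log2 fold change of 0.60 ± 0.17 (SE, adjusted p = 0.044).

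HSD17B7 was at 19.7, 18.0 and 17.3 CPM in controls A, B and C at 24 h and at 26.7, 23.7 and 24.3 CPM in Arg libraries A, B and C. HSD17B7, at chr1:162790702-162812817, takes part in removing methyl groups from the sterol ring, and here control B lay inside the control range, with a log2 fold change of 0.44 ± 0.11 (SE, adjusted p = 0.0278). The remaining 8 enzymes had log2 fold changes between -0.0064 for SC5D, a sterol desaturase, and 0.26 for FDFT1, squalene synthase (adjusted p = 0.0863). SQLE was at 0.19 ± 0.079 and DHCR7 at 0.043 ± 0.087. FDFT1 and SQLE passed the unadjusted threshold.

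Counts of some members could include reads of a neighbour, since the genes overlap and the strand setting of the counting is not given in the sources used here. TCP1, which overlaps ACAT2, had a log2 fold change of -0.0093 ± 0.074 at 24 h. MMAB, which overlaps MVK, was at 0.25 ± 0.089, VPS51, which overlaps TM7SF2, at -0.065 ± 0.094, and FEN1, which overlaps FADS2, at -0.068 ± 0.077, and none of these 4 was called. FADS1 and FADS2 also overlap each other. HSD17B7P2, the pseudogene of HSD17B7, held 112 reads over the 12 libraries against 4978 for HSD17B7.

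The fatty acid branch had 4 of 8 members called at 24 h. ELOVL6 was at 32.2, 30.8 and 30.1 CPM in controls A, B and C at 24 h and at 50.5, 43.3 and 42.2 CPM in Arg libraries A, B and C. ELOVL6, the elongase of saturated and monounsaturated fatty acids at chr4:110045846-110199199, had controls close together and all Arg libraries above them, and its log2 fold change was 0.54 ± 0.10 (SE, adjusted p = 0.00351). SCD was at 2625, 3835 and 2609 CPM in controls A, B and C at 24 h and at 4182, 4193 and 4609 CPM in Arg libraries A, B and C. SCD, at chr10:100347124-100364834, had control B near the Arg libraries and a log2 fold change of 0.52 ± 0.11 (SE, adjusted p = 0.011).

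FADS2 was at 20.3, 21.0 and 16.1 CPM in controls A, B and C at 24 h and at 23.3, 25.5 and 29.0 CPM in Arg libraries A, B and C. FADS2, at chr11:61792980-61867354, rose from a low level with 0.44 ± 0.13 (SE, adjusted p = 0.047). ACACA was at 146, 173 and 136 CPM in controls A, B and C at 24 h and at 183, 184 and 197 CPM in Arg libraries A, B and C. ACACA, at chr17:37084988-37406818, encodes acetyl-CoA carboxylase, which makes malonyl-CoA, and its change of 0.31 ± 0.090 (SE, adjusted p = 0.0472) was the smallest of the 12. TM7SF2, FADS2 and ACACA lay closest to the threshold. FASN was at 1223, 1610.1 and 1064 CPM in controls A, B and C at 24 h and at 1157, 1338 and 1265 CPM in Arg libraries A, B and C. The FASN ranges overlapped and its log2 fold change was -0.053 ± 0.11 (SE, adjusted p = 0.825). ACLY, which makes cytosolic acetyl-CoA from citrate (0.082 ± 0.078), ACSS2, which makes it from acetate (0.017 ± 0.11), and FADS1, a desaturase (0.16 ± 0.092), were not called either.

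**Figure D2:**
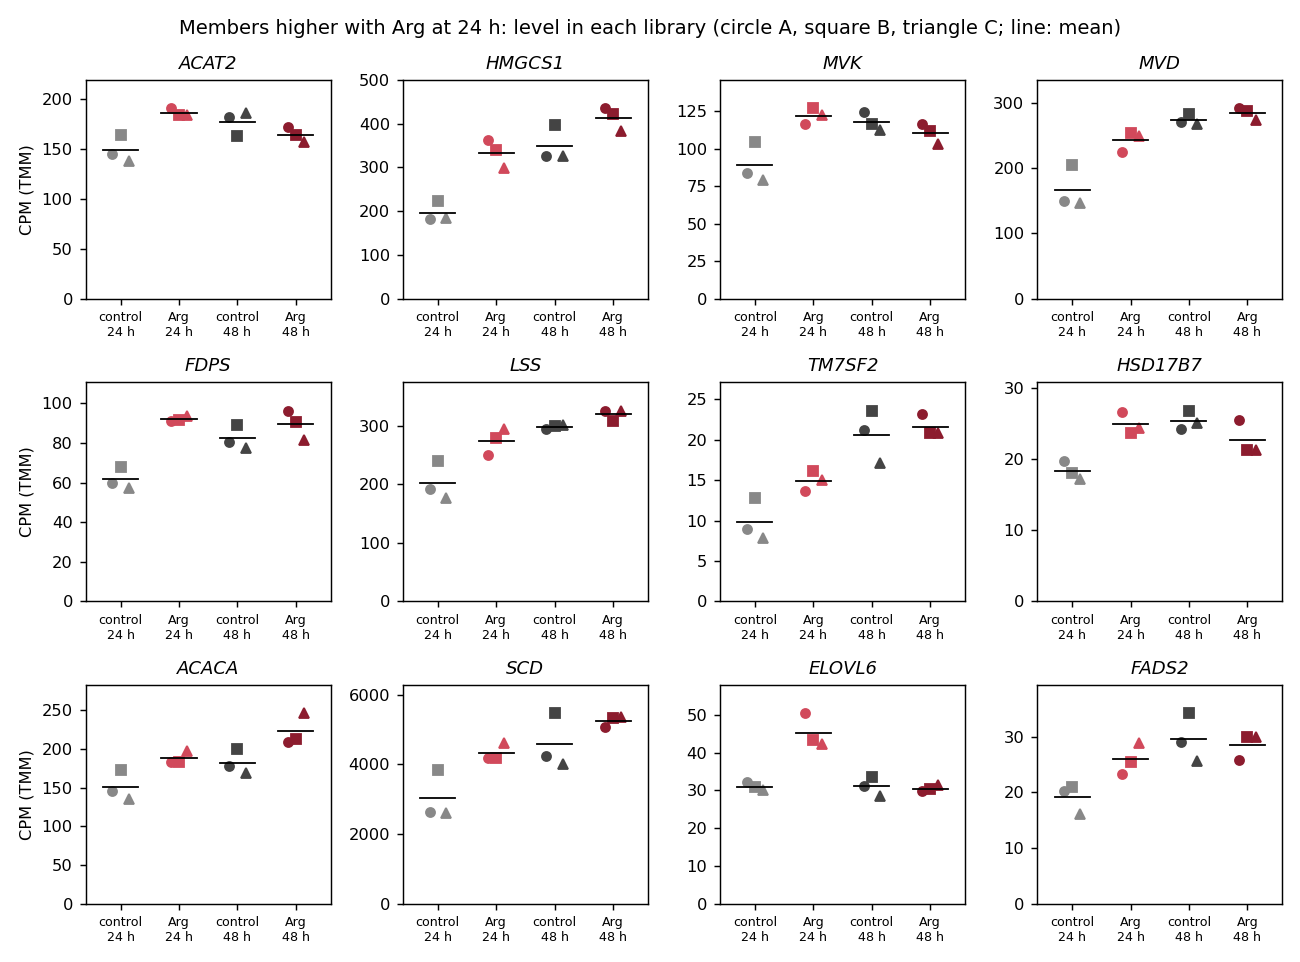
Level of the 12 members called higher with Arg at 24 h, in CPM after TMM scaling from 0, with 1 point per library in the 4 groups (circle A, square B, triangle C) and a line at the mean of 3. At 24 h the Arg points lay above all control points in each panel, with control B often the highest control, and by 48 h the control points had risen in most panels, though not for ELOVL6, where they stayed at 28.4 to 33.6 CPM.

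Of the 6 regulators and carriers, 0 were called in either direction at 24 h by edgeR or DESeq2. Over all genes edgeR called 2.79% higher and 3.84% lower. STARD4 alone passed the unadjusted threshold, as 1 higher and 0 lower, against 10.8% and 11.9% of all genes. With 6 genes, these counts cannot be told apart from the shares over all genes. SREBF1 was at 179.9, 234 and 159.6 CPM in controls A, B and C at 24 h and at 167, 221 and 248 CPM in Arg libraries A, B and C. The SREBF1 ranges overlapped, with a log2 fold change of 0.15 ± 0.13 (SE, adjusted p = 0.546) and an interval of ± 2 SE from -0.12 to 0.41. SREBF2 was at 126, 145 and 111 CPM in controls A, B and C at 24 h and at 125, 134 and 140.0 CPM in Arg libraries A, B and C. For SREBF2 the change was 0.060 ± 0.094 (SE, adjusted p = 0.751), with an interval from -0.13 to 0.25. These intervals leave room for a change in SREBF1 as large as that of ACACA.

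SCAP was at 53.4, 54.8 and 46.9 CPM in controls A, B and C at 24 h and at 42.4, 53.8 and 56.2 CPM in Arg libraries A, B and C. SCAP overlapped between groups, at -0.027 ± 0.11 (SE, adjusted p = 0.916). INSIG1 was at 83.7, 132 and 86.6 CPM in controls A, B and C at 24 h and at 128, 108 and 107 CPM in Arg libraries A, B and C. Control B exceeded every Arg library for INSIG1, and the change was 0.18 ± 0.13 (SE, adjusted p = 0.451), compared with 0.42 and an adjusted p of 0.00798 without control B. INSIG2 was at 10.5, 10.7 and 10.5 CPM in controls A, B and C at 24 h and at 10.003, 9.32 and 7.74 CPM in Arg libraries A, B and C. INSIG2 was the 1 member whose Arg libraries all lay below the controls, yet at -0.23 ± 0.16 (SE, adjusted p = 0.407) it was not called. STARD4, a cytosolic sterol carrier, was at 0.36 ± 0.13. The ratio of INSIG1 to INSIG2 CPM was 7.96, 12.3 and 8.25 in the controls and 12.8, 11.6 and 13.8 with Arg.

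**Figure D3:**
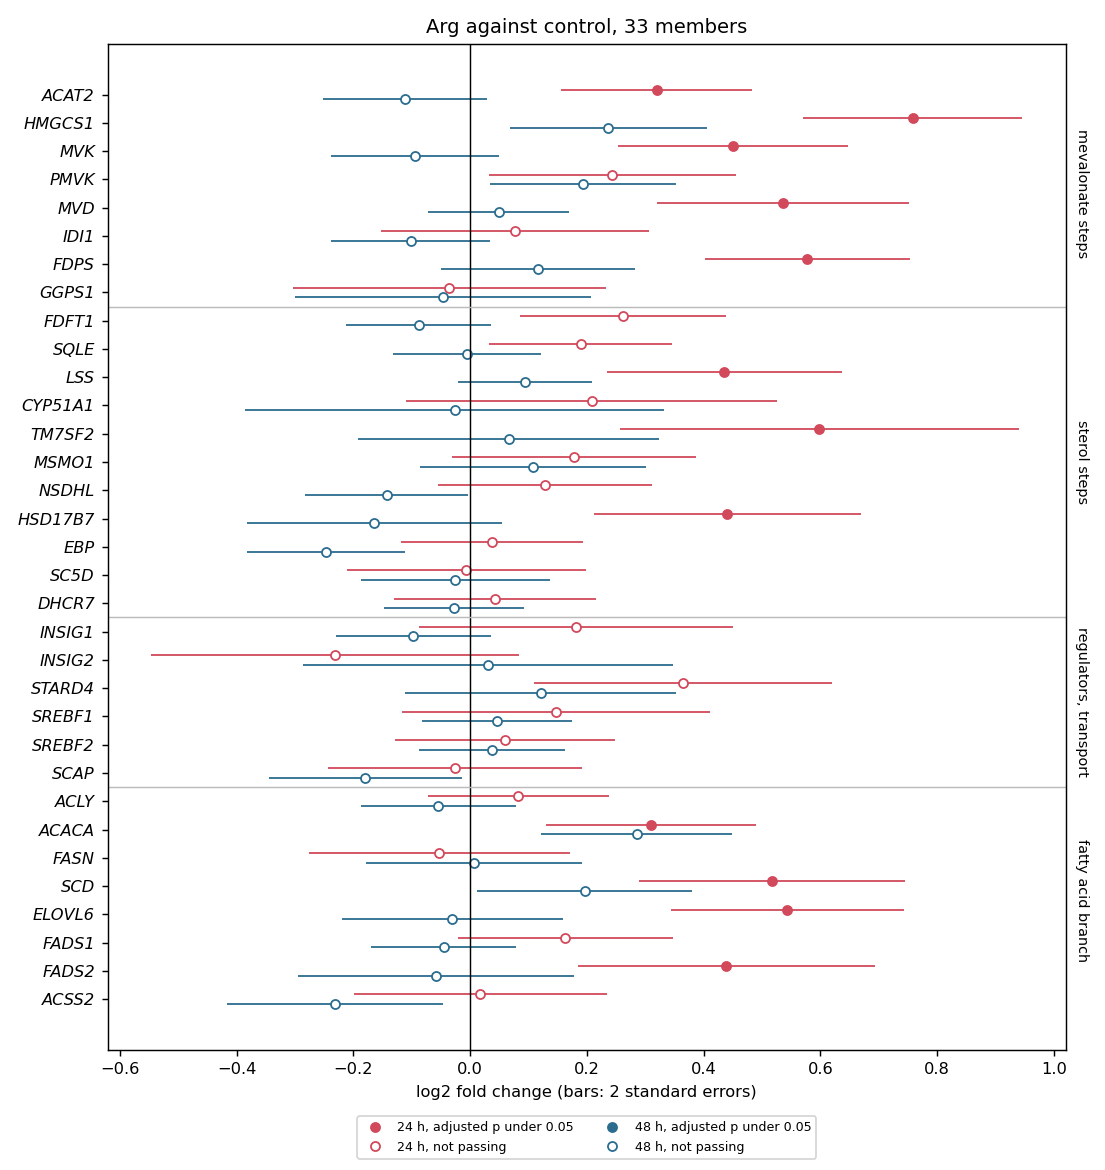
Log2 fold change of Arg against control for the 33 members at 24 h (red) and 48 h (blue), with bars of 2 standard errors, filled where the adjusted p was under 0.05, grouped by branch. The 12 filled points are all at 24 h and all above 0, and at 48 h the points scatter from -0.25 for EBP to 0.28 for ACACA with none filled.

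The second comparison asked what remained of this after 48 h. No member was called by edgeR, with 0 of 33 higher against 0% of the 14562 genes tested and 0 lower against 0.117%. DESeq2 called 0 in either direction after adjustment. At an unadjusted p under 0.05, 3 members were higher (HMGCS1, PMVK and ACACA), against 5.94% of all genes, and 2 were lower (EBP and ACSS2), against 7.49%. The Arg libraries lay above all controls for 3 members and below them for 4, compared with 8.56% and 8.51% of all genes. 14 members had a positive and 19 a negative log2 fold change. The medians were -0.026 over the 19 sterol enzymes, -0.038 over the fatty acid branch and 0.0018 over all genes.

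HMGCS1 was at 326, 396 and 326 CPM in controls A, B and C at 48 h and at 435, 421 and 382 CPM in Arg libraries A, B and C. Control B fell inside the Arg range, and the log2 fold change of HMGCS1 was 0.24 ± 0.084 (SE, adjusted p = 0.261). ACACA was at 179, 199.8 and 168 CPM in controls A, B and C at 48 h and at 209, 213 and 246 CPM in Arg libraries A, B and C. ACACA was higher in all Arg libraries than in all controls, at 0.28 ± 0.082 (SE, adjusted p = 0.196), a log2 fold change close to that at 24 h though short of the threshold. EBP was at 130.1, 123 and 129.6 CPM in controls A, B and C at 48 h and at 114, 105 and 103 CPM in Arg libraries A, B and C. EBP, the isomerase of the late sterol steps, lay lower in all Arg libraries, at -0.25 ± 0.067 (SE, adjusted p = 0.176).

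SCD was at 4239, 5468 and 4016 CPM in controls A, B and C at 48 h and at 5061, 5325 and 5367 CPM in Arg libraries A, B and C. SCD in control B exceeded every Arg library, and the log2 fold change was 0.20 ± 0.092 (SE, adjusted p = 0.383). ELOVL6 was at 31.2, 33.6 and 28.4 CPM in controls A, B and C at 48 h and at 29.8, 30.3 and 31.3 CPM in Arg libraries A, B and C. The ELOVL6 ranges overlapped at the level of the 24 h control, with -0.030 ± 0.094 (SE, adjusted p = 0.917). FDPS was at 80.7, 89.1 and 77.6 CPM in controls A, B and C at 48 h and at 96.3, 90.7 and 81.7 CPM in Arg libraries A, B and C. FDPS overlapped as well, at 0.12 ± 0.083 (SE, adjusted p = 0.571). The remaining called members of the 24 h comparison ranged in their 48 h log2 fold change from -0.16 for HSD17B7 to 0.094 for LSS.

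SREBF1 was at 320.0, 321 and 311 CPM in controls A, B and C at 48 h and at 315, 315 and 355 CPM in Arg libraries A, B and C. SREBF2 was at 161, 174 and 168 CPM in controls A, B and C at 48 h and at 167, 178 and 172 CPM in Arg libraries A, B and C. Both SREBF genes overlapped between Arg and control, with log2 fold changes of 0.046 for SREBF1 and 0.038 for SREBF2. SCAP was at 47.6, 53.0 and 47.3 CPM in controls A, B and C at 48 h and at 44.2, 41.4 and 45.2 CPM in Arg libraries A, B and C. SCAP was lower in all Arg libraries, at -0.18 ± 0.083 (SE, adjusted p = 0.371). INSIG1 was at 111, 119 and 114 CPM in controls A, B and C at 48 h and at 112, 104 and 106 CPM in Arg libraries A, B and C. INSIG2 was at 10.3, 11.3 and 9.76 CPM in controls A, B and C at 48 h and at 12.2, 11.1 and 8.75 CPM in Arg libraries A, B and C. The INSIG1 and INSIG2 log2 fold changes were -0.10 and 0.030, neither called.

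Control B of 48 h was the library whose omission changed the 48 h calls most. Mitochondrially encoded genes took 1.55% of its counts, compared with 0.906% and 0.707% in controls A and C and 1.14% to 1.31% in the Arg libraries. Without it 4 members were called higher (HMGCS1, MSMO1, ACACA and SCD) and 2 lower (EBP and ACSS2), while over all genes the calls went from 0 to 1152 higher and from 17 to 1213 lower. At an unadjusted p under 0.05 the fit without control B gave 7 higher and 5 lower members. Without control A or control C of 48 h there were 1 higher and 1 lower. Without Arg library A there were 1 higher and 2 lower, without B 2 and 2, and without C 2 and 1. Shares over all genes at an unadjusted p were not computed for the fits without 1 library. With every library they were 5.94% higher and 7.49% lower. Summed suprabasal markers at 48 h were 2036, 4599 and 1875 CPM in controls A, B and C and 4312, 3659 and 3558 CPM in the Arg libraries. Control B was thus above every Arg library and controls A and C below them, and the part of these markers in the result was not tested.

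Whether the Arg effect differed between the times was tested as an interaction over all 12 libraries. By edgeR 0 members were called lower or higher, against 0% and 0.0132% of the 15148 genes tested. At an unadjusted p under 0.05, 13 members had a smaller Arg effect at 48 h than at 24 h, against 3.80% of all genes, and 0 had a larger one, against 3.06%. All 19 sterol enzymes had a negative difference, with a median of -0.28 on the log2 scale, compared with -0.0057 over all genes. The most negative were HSD17B7 (-0.60 ± 0.15), ELOVL6 (-0.57 ± 0.14) and MVK (-0.54 ± 0.13). DESeq2 called 2 members lower, MVK and ELOVL6, among 13 lower and 10 higher of all genes. With both control B libraries left out, edgeR called 8 members lower, among them HMGCS1, MVK, MVD, LSS and SCD, with 39 lower and 64 higher of 15428 genes. Without control B of 24 h or of 48 h alone it called 2 and 1 members lower, among 4 and 18 of all genes. The difference for ACACA was -0.022 ± 0.13.

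The third comparison followed the control cells from 24 h to 48 h. HMGCS1, TM7SF2, MVD, SREBF1 and other members rose with time without Arg, and none fell. The control at 24 h is also the baseline of the 24 h Arg comparison, so the values of both are given side by side and share its error. In the control, 15 of 33 members were called higher at 48 h, against 9.90% of the 14449 genes tested, and 0 were called lower, against 10%. DESeq2 called 16 higher and 0 lower, among 1499 higher and 1629 lower of all genes. By edgeR, 20 were higher at an unadjusted p under 0.05 and 0 lower, against 17.1% and 17% of all genes. The median log2 fold change was 0.25 over the 19 sterol enzymes, 0.36 over the fatty acid branch and 0.012 over all genes. The called members were 8 sterol enzymes, 4 fatty acid genes, STARD4, SREBF1 and SREBF2.

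TM7SF2 changed most, with a log2 fold change of 1.07 ± 0.19 (SE, adjusted p = 0.00406), compared with 0.60 for Arg at 24 h. HMGCS1 rose by 0.83 ± 0.10 (SE, adjusted p = 0.00126), compared with 0.76. MVD rose by 0.72 over time and by 0.54 with Arg, LSS by 0.56 and 0.44, and HSD17B7 by 0.47 and 0.44. FDPS rose by 0.42 and 0.58, MVK by 0.40 and 0.45, and IDI1, at 0.33, was called over time and not with Arg.

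In the fatty acid branch FADS2 rose by 0.64 over time, SCD by 0.60, ACSS2 by 0.58 and FADS1 by 0.44. ELOVL6 had a log2 fold change of 0.0039 ± 0.10 (SE, adjusted p = 0.983) in the control, whereas its Arg change at 24 h was 0.54. SREBF1 rose by 0.73 ± 0.11 (SE, adjusted p = 0.00273), with no overlap between 160 to 234 CPM at 24 h and 311 to 321 CPM at 48 h. SREBF2 rose by 0.40 ± 0.095 (SE, adjusted p = 0.014). The corresponding values with Arg at 24 h were 0.15 for SREBF1 and 0.060 for SREBF2. RAI1, which overlaps SREBF1 on the other strand, rose by 0.31 ± 0.093 (SE, adjusted p = 0.0374) in the same comparison. SCAP (-0.065) and INSIG2 (-0.014) had the negative values along with DHCR7 (-0.036), and none was called.

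Over the 19 sterol enzymes, the mean shift from the 24 h control mean showed how far each library had moved. It was -0.064, 0.12 and -0.061 on the log2 scale in 24 h controls A, B and C, and 0.34, 0.27 and 0.26 in the Arg libraries at 24 h. At 48 h it was 0.33, 0.39 and 0.30 in the controls and 0.38, 0.31 and 0.31 with Arg. The 24 h Arg libraries thus lay near the level of the 48 h controls. In the fatty acid branch the shift was -0.057, 0.21 and -0.15 in the 24 h controls, 0.25, 0.24 and 0.29 with Arg at 24 h, 0.40, 0.39 and 0.32 in the 48 h controls and 0.31, 0.38 and 0.46 with Arg at 48 h. Control B at 24 h lay close to Arg libraries A and B in that branch.

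**Figure D4:**
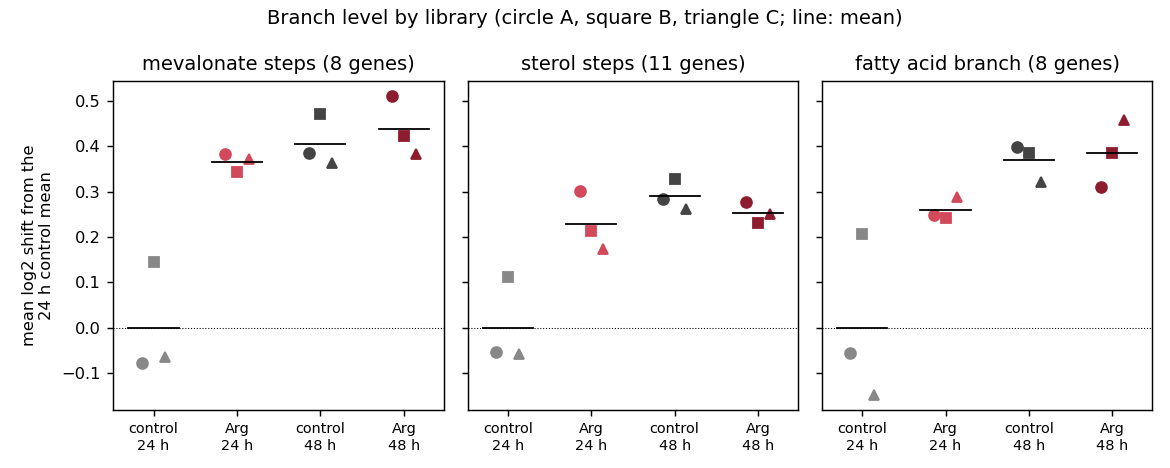
Mean log2 shift of each library from the 24 h control mean over the mevalonate steps, the sterol steps and the fatty acid branch, with 1 point per library (circle A, square B, triangle C) and a line at the mean of 3. The controls rose between 24 h and 48 h in all 3 panels, and at 24 h control B lay above controls A and C, at 0.21 in the fatty acid branch.

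Without control B of 24 h, or without both control B libraries, 22 members were called higher over time, with ACAT2, FDFT1, SQLE, INSIG1, ACLY, ACACA and FASN added and none lost. Over all genes the higher calls in these fits were 1585 of 14866 and 2177 of 14543, compared with 1431. Without control A of 24 h there were 7 members, and without control C of 24 h there were 5, which were HMGCS1, MVD, LSS, TM7SF2 and SREBF1, while over all genes the higher calls were 422 of 14825 and 497 of 14890. Summed markers of suprabasal keratinocytes rose over time in the control. They were at 811 to 1368 CPM at 24 h and 1875 to 4599 CPM at 48 h, highest in control B at both times. KRT13 alone averaged 771 CPM at 24 h and 2139 CPM at 48 h. Of the 7 tested suprabasal markers, 4 were called higher and 1 lower, against 9.90% and 10% of all genes. The lower one was SPRR1B, at 47.4 CPM and then 37.2 CPM. Summed fibroblast markers went from 34.2 to 54.4 CPM to 85.4 to 102.5 CPM. The part of either in the rise of the members was not tested.

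The same time comparison in Arg-treated cells shares its 24 h Arg libraries with the first comparison. With Arg, 11 members were called higher, against 14.3% of the 14398 genes tested, and 2 lower, against 14.0%. There were 12 higher and 4 lower at an unadjusted p under 0.05, against 19.3% and 19.2%. The median over the 19 sterol enzymes was 0.0074 and over the fatty acid branch 0.24, compared with 0.00092 over all genes. HMGCS1 rose by 0.31 ± 0.076 (SE, adjusted p = 0.0045), TM7SF2 by 0.54, MVD by 0.23 and LSS by 0.22. ELOVL6 fell, with -0.57 ± 0.093 (SE, adjusted p = 0.000126), and so did EBP, with -0.22 ± 0.072 (SE, adjusted p = 0.0262). Without Arg library C of 48 h 7 members were called higher and 1 lower, among 1580 and 1540 of all genes, and without Arg library B of 48 h 1 was called lower, among 1378, EBP being the call that was lost.

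SREBF1 rose by 0.63 ± 0.10 (SE, adjusted p = 0.000103) in Arg-treated cells and SREBF2 by 0.38 ± 0.070 (SE, adjusted p = 0.000472), both close to their values in the control. FASN rose by 0.29, SCD by 0.28, ACSS2 by 0.34, ACACA by 0.25 and FADS1 by 0.23. FDPS, at -0.040 ± 0.078, and MVK, at -0.14 ± 0.074, were not called. ELOVL6 thus had its highest level with Arg at 24 h, at 42.2 to 50.5 CPM, and between 28.4 and 33.6 CPM in the other 3 groups.

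**Figure D5:**
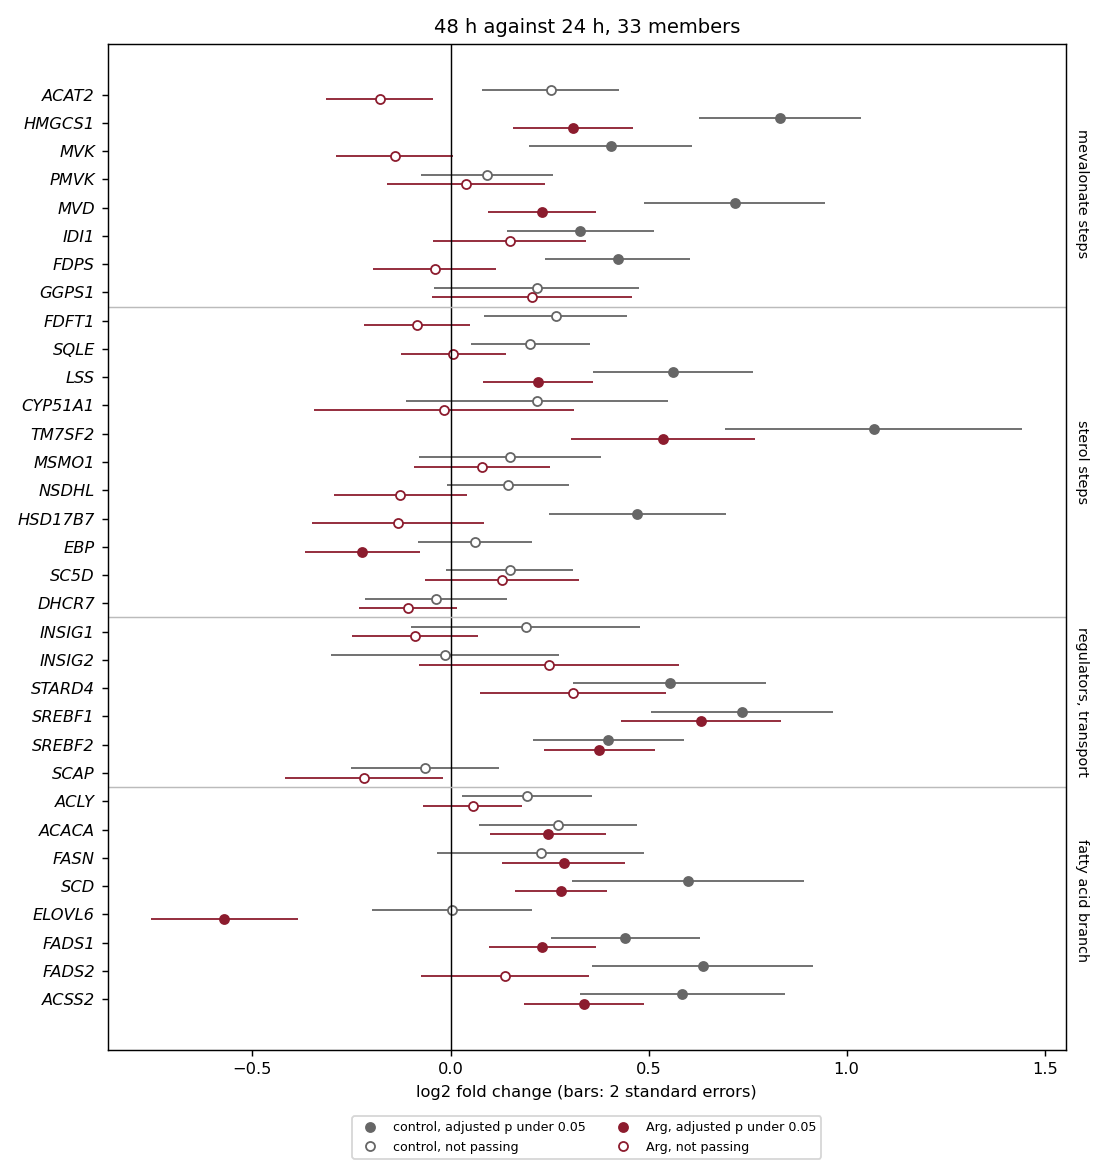
Log2 fold change of 48 h against 24 h for the 33 members in the control (grey) and in Arg-treated cells (dark red), with bars of 2 standard errors, filled where the adjusted p was under 0.05. SREBF1 and SREBF2 rose in both, HMGCS1 stood at 0.83 in the control and 0.31 with Arg, and ELOVL6 stood at 0.0039 in the control and at -0.57 with Arg.

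Other genes of sterol and fatty acid handling at 24 h were taken from lists outside the 33 members. Of 10 genes of sterol transport and storage 1 was called, TMEM97, which rose by 0.42 ± 0.087 (SE, adjusted p = 0.00805). Of 6 LXR genes and targets 1 was called, PLTP, a phospholipid transfer protein, which fell by 0.30 on the log2 scale (SE 0.076, adjusted p = 0.0249). Of 22 tested further genes of fatty acid elongation, desaturation and activation 2 were called higher, HACD2, an enzyme of elongation (0.30 ± 0.074), and SCD5, a desaturase (0.39 ± 0.11). Of 14 genes that use isoprenoids 1 was called, RABGGTA, a subunit of Rab geranylgeranyl transferase, which fell by 0.44 (SE 0.11, adjusted p = 0.0225). In all, 3 of these 52 genes were called higher and 2 lower at 24 h, against 2.79% and 3.84% of all genes. At an unadjusted p under 0.05, 7 were higher and 10 lower, against 10.8% and 11.9%. At 48 h 0 of these 52 genes were called by edgeR, against 0% higher and 0.117% lower of all genes. There were 5 higher and 2 lower at an unadjusted p under 0.05, against 5.94% and 7.49%.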

How the data were processed

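RNA from 12 TIGK libraries was sequenced as 150 bp paired-end reads after a NEBNext Ultra library preparation, per the labels. The authors trimmed reads with fastp, used STAR to align them to GRCh38, and obtained gene counts from featureCounts. The deposited table holds raw, unnormalised read counts, with gene lengths, and tool versions and the strand setting are not given in the sources used here. Counts were analysed in R 4.3.3 with edgeR 4.0.16: genes were kept by filterByExpr, libraries were scaled by TMM, and each comparison of 3 against 3 libraries was fitted by quasi-likelihood on those 6 libraries, with Benjamini-Hochberg adjustment over all genes tested. The difference between times was fitted on all 12 libraries. An exact permutation test of 3 against 3 cannot go below p = 0.1. DESeq2 1.42.0, other scalings, other filters, a replicate block and fits without each library were alternatives, and the fit without both control B libraries was added after the data were seen. The scripts were tested on simulated data. The members, lists and named genes (every called member, the regulators, and at most 3 called genes of each other list) were chosen with earlier results of these data known. A further gene list is not reported here.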

Additional observations from a re-analysis of the deposited data

How the results depend on the processing

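With all libraries kept, 11 to 13 members were called higher with Arg at 24 h in every alternative, among 379 to 555 of all genes. Leaving out 1 library gave 3 to 16, among 126 to 647 of all genes. The fits without 1 library moved the 24 h log2 fold change from -0.11 to 0.083 for SCAP and from -0.034 to 0.16 for SREBF2. At 48 h, keeping every gene with a count gave 3 members called higher (HMGCS1, ACACA and SCD), among 199 higher of 27248 genes. DESeq2 with all libraries gave 0, among 40 higher of 14562 genes. Leaving out 1 library at 48 h gave 0 to 4 higher and 0 to 2 lower members after adjustment, 1 to 7 higher and 1 to 5 lower at an unadjusted p under 0.05. Over all genes these fits gave 0 to 1152 higher and 5 to 1213 lower after adjustment. The 48 h log2 fold change then ran from -0.092 to 0.030 for ELOVL6, from -0.15 to 0.059 for FADS2, from -0.054 to 0.18 for TM7SF2, from -0.078 to 0.16 for INSIG2 and from -0.011 to 0.077 for SREBF1. For the difference between times the members called lower were 2 with DESeq2, 3 with no filter, 8 without both control B libraries and 0 to 2 with 1 library left out. Over all genes the lower calls were 13, 37, 39 and 0 to 18, in the same order. Over time in the control, leaving out 1 library gave 5 to 22 higher members, among 422 to 1585 of all genes. Over time with Arg, leaving out 1 library gave 7 to 14 higher and 1 to 3 lower members. Over all genes these were 1535 to 1838 higher and 1378 to 1915 lower. The model of all 12 libraries gave 6 higher, among 1716, and scaling by library size alone gave 1 lower, among 1453. That scaling also changed the split over all genes, from 1431 higher and 1451 lower to 1845 and 1008 in the control, and from 2060 and 2012 to 2568 and 1453 with Arg. Beyond the fits that hold fewer libraries or other genes, the cause was not tested.

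A shared letter is all the labels give, so whether same-letter libraries were paired is not known. Deviations of same-letter libraries correlated between -0.091 and 0.19, highest for control B of 24 h against control B of 48 h. With a replicate block 11 members were called higher at 24 h, 0 at 48 h, 0 in the difference between times, 19 over time in the control and 12 with Arg. Over all genes the higher calls with the block were 379, 43, 2, 1969 and 1926, in that order. Without the block they were 398, 0, 2, 1431 and 2060. The block fit called 2 members lower over time with Arg, among 1853 of all genes. FADS2 was the member lost at 24 h.

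INSIG2, CYP51A1 and TM7SF2 had the fewest reads of the members, with 2215, 2300 and 3662 counts over the 12 libraries. How much of their error came from read number and how much from spread between libraries was not tested.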

Other observations

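Among genes of lipid handling outside the 33 members, those named here were chosen after their values were seen. Of 6 LXR genes and targets, edgeR's quasi-likelihood test called 1 higher and 1 lower from 24 h to 48 h in the control, and 2 higher and 1 lower with Arg. Of 22 tested further fatty acid genes it called 6 higher and 2 lower in the control, and 8 higher and 2 lower with Arg. Of 10 genes of sterol transport it called 1 higher and 3 lower in the control, and 0 higher and 1 lower with Arg, where an unadjusted p under 0.05 gave 0 and 2. Over all genes, 9.90% were called higher and 10% lower in the control, and 14.3% and 14.0% with Arg. ABCG1, a sterol exporter and LXR target, had a log2 fold change of 0.82 ± 0.16 (SE, adjusted p = 0.00631) in the control and 1.10 ± 0.19 (SE, adjusted p = 0.000256) with Arg. ACSL1, which activates long-chain fatty acids, was at 0.81 ± 0.11 (SE, adjusted p = 0.00186) and 0.74 ± 0.071 (SE, adjusted p = 3.69e-07). In the other direction, SCARB1, a lipoprotein receptor, was at -0.25 ± 0.075 (SE, adjusted p = 0.0341) and -0.26 ± 0.074 (SE, adjusted p = 0.0126).

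Of 14 genes that use isoprenoids, 5 were called lower over time in the control, against 10% of all genes, and 4 with Arg, against 14.0%. None was called higher in either. There were 7 lower and 0 higher at an unadjusted p under 0.05 in the control, against 17% and 17.1% of all genes, and 5 lower and 0 higher with Arg, against 19.2% and 19.3%. The other 9 and 10 genes were not called, and no test of the list was run. ZMPSTE24, a protease that matures prenylated lamin A, was at -0.44 ± 0.073 (SE, adjusted p = 0.00335) in the control and -0.38 ± 0.086 (SE, adjusted p = 0.00265) with Arg. NUS1, a subunit of the dolichol synthase, was at -0.40 ± 0.080 and -0.26 ± 0.084. The median over the list was -0.22 in the control and -0.12 with Arg, and over all tested genes 0.012 and 0.00092.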
